A study of Mus musculus with 2 samples.

Results

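Cadherins and protocadherins are calcium-dependent adhesion molecules of the cell surface, and 92 of the 32285 genes measured in mouse retina belonged to them by symbol. Members were all genes named Cdh followed by a number, and all genes whose symbol starts with Pcdh, leaving out pseudogene and antisense symbols. They comprised 23 cadherins, 57 protocadherins of the alpha, beta and gamma clusters (14, 22 and 21 genes), and 12 protocadherins outside the clusters. The study used droplet single-cell RNA sequencing of retina, with 1 library from mice kept under short-wavelength light and 1 from mice kept under full-spectrum white light. Both exposures began at postnatal day 14 and lasted 2 weeks. Strain, genotype, sex and the number of animals per library are not given in the sources used here, and both libraries were labelled as all cells of the retina.

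Classical cadherins bind the same or a related cadherin on a neighbouring cell, and their cytoplasmic tails bind catenins, which join them to actin. Protocadherins lack that catenin tail. The clustered ones are chosen in different combinations by single neurons and serve in self-recognition of neurites, and several non-clustered ones bind the WAVE complex, a regulator of actin branching. In the retina, cadherins are known for the layering and the choice of partners of bipolar cells, N-cadherin (Cdh2) for the junctions between Müller glia and photoreceptors, and Cdh23 and Pcdh15 for Usher syndrome, in which hearing and photoreceptors are lost.

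Of 16106 short-wavelength and 5707 white-light barcodes, 14023 and 5436 remained after filtering, with a median of 2434 and 2784 unique molecular identifiers (UMIs, counted RNA molecules) per deposited barcode and 51681469 and 20952589 UMIs in all. The libraries shared 26 barcodes. Cells were placed in 5 classes by UMIs of marker genes: 10333 and 3377 rods, 309 and 97 cones, 166 and 52 bipolar cells, 87 and 35 Müller glia, and 42 and 17 microglia in the short-wavelength and white-light library, in that order, which holds for every pair of values given here. Barcodes that passed no gate made up 21.1% and 30.8% of those kept. Levels are UMIs per 1000000 UMIs of the class and library (CPM), and n is 1 library per light condition throughout. Rods had a median of 2200 and 2475 UMIs per cell, and the other classes 5688 to 8176. RNA of rods was present in each other class: rod markers there reached 21.8 to 24.2% of their level in rods for cones and 11.2 to 16.3% for the other classes. The Müller class carried Flt1, a vascular marker, at 799 and 386 UMIs and Pdgfrb at 58 and 27, whereas Cldn5, Rgs5 and Kcnj8 were at 0 in both libraries. The microglia held 227 and 190 UMIs of Apoe, with the macrophage marker Mrc1 at 1 and 9 UMIs and Cd163 at 0.

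In a run of cadherin genes on chromosome 15, neighbours did not all share the same highest class. The bases before their starts are given for that reason. On mm10, Cdh9 (16728756 to 16857094), Cdh10 (18818947 to 19014236), Cdh12 (20449265 to 21589533) and Cdh18 (22549022 to 23474418) all lie on the plus strand, with Cdh6 on the minus strand at 13028701 to 13173675. Taken over whole classes, Cdh9 and Cdh12 were highest in bipolar cells, Cdh10 in Müller glia and Cdh18 in cones. All 4 were also found in bipolar cells, at levels given below. Cdh6 had 11 UMIs in all gated cells. The sequences are the 250 bases upstream of a RefSeq start on GRCm38.p6, 5′ to 3′. The windows of Cdh10, Cdh12 and Cdh18 lie inside the longer gene spans of the GENCODE annotation, and that of Cdh9 runs past the start of its span, so these windows need not be the starts used in these cells.
Cdh9, chr15:16728665-16728914: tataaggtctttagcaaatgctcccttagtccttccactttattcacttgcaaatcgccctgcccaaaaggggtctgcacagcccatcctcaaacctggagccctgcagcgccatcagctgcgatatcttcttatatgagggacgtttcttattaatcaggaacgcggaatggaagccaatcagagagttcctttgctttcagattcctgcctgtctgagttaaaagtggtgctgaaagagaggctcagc
Cdh10, chr15:18820079-18820328: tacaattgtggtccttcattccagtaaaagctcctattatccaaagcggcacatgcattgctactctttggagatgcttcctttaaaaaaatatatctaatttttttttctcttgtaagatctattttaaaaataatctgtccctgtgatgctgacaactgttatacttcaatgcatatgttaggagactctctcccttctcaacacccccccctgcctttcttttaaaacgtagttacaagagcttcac
Cdh12, chr15:21111202-21111451: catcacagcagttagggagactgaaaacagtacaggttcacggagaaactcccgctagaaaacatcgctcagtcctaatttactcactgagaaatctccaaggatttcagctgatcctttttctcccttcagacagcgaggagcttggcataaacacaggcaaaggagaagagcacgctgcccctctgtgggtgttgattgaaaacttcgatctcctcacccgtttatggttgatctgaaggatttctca
Cdh18, chr15:23036213-23036462: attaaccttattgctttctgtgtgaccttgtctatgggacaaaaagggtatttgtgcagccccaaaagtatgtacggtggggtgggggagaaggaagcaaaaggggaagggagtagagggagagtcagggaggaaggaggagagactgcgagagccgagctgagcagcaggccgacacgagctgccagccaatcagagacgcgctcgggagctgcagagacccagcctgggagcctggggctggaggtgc
The 4 windows held 48%, 36.8%, 46.8% and 58% G and C and 6, 2, 7 and 8 CpG dinucleotides, against medians of 52.4% and 6 over 32851 promoters. Short motifs were searched on both strands, to be put in capitals where found, and they did not occur in these 4 windows. The core of Crx sites, TAATCC, was found in 6.25% of all promoters. An E-box of neural factors, CAGATG, was found in 14.4%. A homeobox core, TAATTA, was found in 4.84%. RefSeq windows matched 22 of the 92 members.

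At least 1 UMI was counted in the gated cells for 89 members, and Cdh15, Pcdha3 and Pcdh12 had none. The members held 164527 UMIs, 81.4% of them from Pcdh15. The test between classes (edgeR, Benjamini-Hochberg over 15376 genes) took genes with at least 20 UMIs over both libraries, which 57 members reached: 13 cadherins, 6 non-clustered and 38 clustered protocadherins. Each class has 1 sum of cells per library in that test, and a gene is called led by a class where its level there passed adjusted p under 0.05 above each of the other 4 classes. Of the 57 members tested, 38 (66.7%) passed in at least 1 of the 10 pairs of classes, against 78.6% of all genes, and 17 (29.8%) were led by a class, against 32.5% of all genes. By family, 12 of the 13 cadherins tested (23 in all), 5 of the 6 non-clustered protocadherins tested (12 in all) and 0 of the 38 clustered ones tested (57 in all) were led by a class. A gene passes the UMI minimum most easily through the class where it is high, so these counts describe the genes that were measurable. The clustered genes had no more than 369 UMIs each, and 20 of the 38 (52.6%) passed in at least 1 pair. Whether low counts kept them from being led by a class was not tested.

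**Figure D1:**
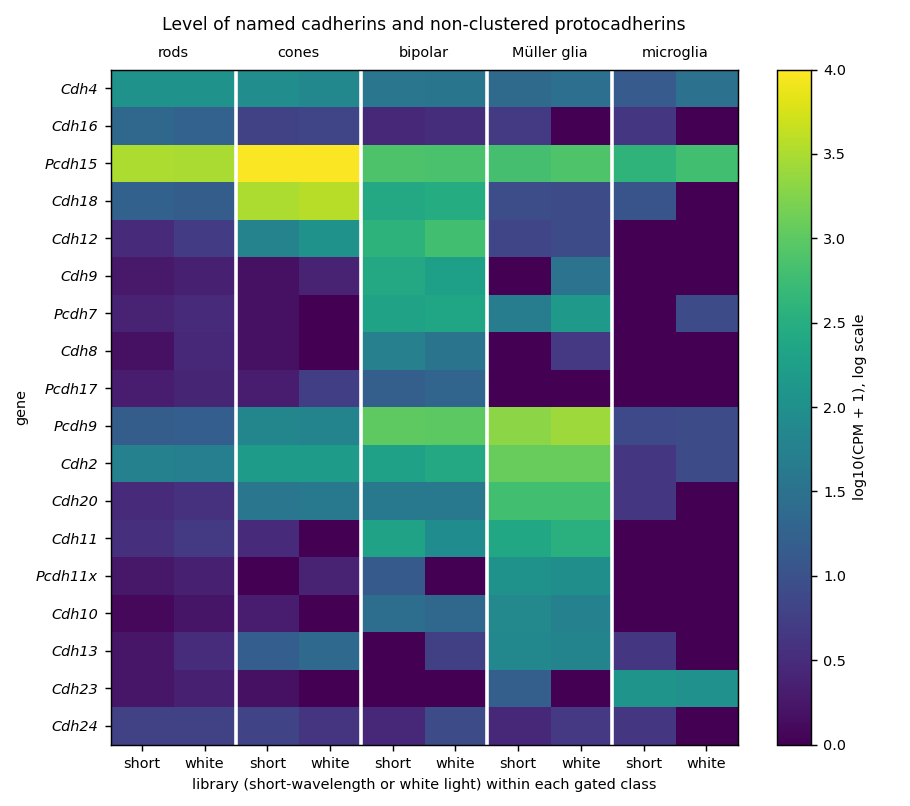
Level of the 13 cadherins and 5 non-clustered protocadherins with at least 50 UMIs, as log10(CPM + 1) on a colour scale, for each gated class (blocks) and library (short, short-wavelength; white, white light). Cdh18 and Pcdh15 are brightest in cones, Cdh2, Cdh20 and Pcdh9 in Müller glia, and Cdh23 is above 100 CPM in microglia alone.

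Cones led 2 members, Cdh18 and Pcdh15, where 3.85% of all genes were led by cones. Cdh18, a type II cadherin of neurons, was at 3265 and 3698 CPM in cones. Its level was 262 and 302 CPM in bipolar cells, 16.7 and 14.2 CPM in rods, 7.67 and 7.09 CPM in Müller glia, and 9.98 and 0 CPM in microglia. The cone values lay above every other class in both libraries: 196-fold above rods under short-wavelength light (95% interval 177 to 216) and 260-fold under white light (217 to 313), with intervals that cover counting error only. Against bipolar cells, the class nearest to cones, the difference was 12.4-fold (11.1 to 14.0) and 12.2-fold (10.2 to 14.7), with adjusted p = 5.6e-128 in edgeR.

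Most cones carried Cdh18 RNA. At least 1 UMI was found in 281 of 309 cones (90.9%, exact interval 87.2 to 93.9%) and in 84 of 97 (86.6%, 78.2 to 92.7%). With every cell thinned to 1000 UMIs, which left out 1 and 2 cones, the shares were 81.8% and 81.0%. The background in rods was 3.86% and 3.58% of cells, which were shallower (cones had a median of 6397 and 6759 UMIs per cell), and 1.72% and 1.21% after thinning. Cones without a Cdh18 UMI numbered 28 and 13, and they were shallow, with a median of 1476 and 2075 UMIs against 6754 and 7448 in the others. Mitochondrial UMIs made up 7.57% and 8.88% of their RNA against 2.67% and 2.94% in cones with Cdh18, and Malat1, a nuclear RNA, 1.59% and 0.841% against 4.41% and 3.90%. Pcdh15 was likewise low in them, at 2299 and 600.5 CPM against 9501 and 9735 CPM. Whether these features account for the lack of Cdh18 was not tested.

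Pcdh15, a long protocadherin of sensory cells that pairs with Cdh23 in hair cells, was at 9309 and 9372 CPM in cones and 3171 and 3096 CPM in rods. Cones were higher by 2.94-fold (2.89 to 2.98) and 3.03-fold (2.94 to 3.11), and by 1.58 on the log2 scale in edgeR (adjusted p = 1.5e-26). The gene spans 73099342 to 74649737 on chromosome 10. At least 1 UMI was seen in 95.9% and 93.8% of rods. Bipolar cells had 766 and 699 CPM, Müller glia 654 and 805 CPM, and microglia 403 and 622 CPM. Rod RNA at the level of the rod markers would bring 399.7 and 347.9 CPM to bipolar cells, 464.7 and 350.2 CPM to Müller glia and 403.5 and 505.9 CPM to microglia, so the microglial values were 0.998 and 1.23 times that level. In cones the same reckoning gives 766.5 and 674.0 CPM.

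**Figure D2:**
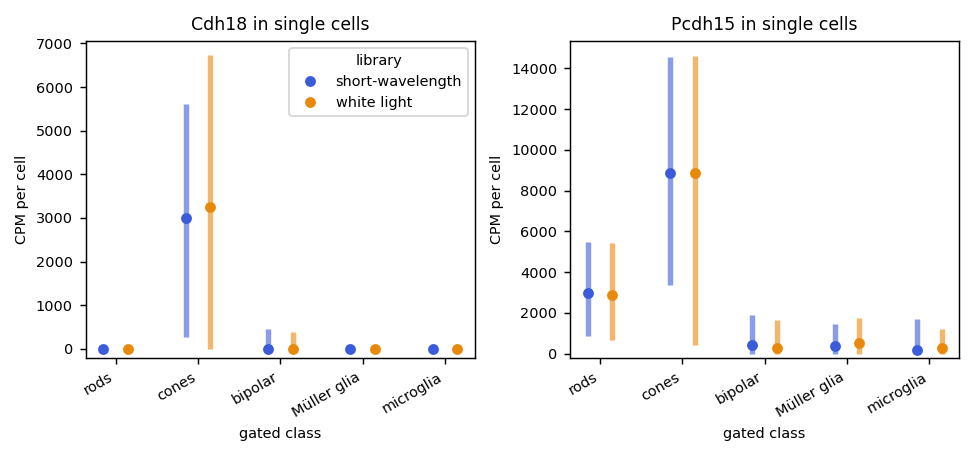
Cdh18 (left) and Pcdh15 (right) in single cells of each gated class, in CPM per cell on a linear scale; points are medians and bars run from the 10th to the 90th percentile of cells, blue for short-wavelength and orange for white light. The median for Cdh18 is 2988 and 3256 CPM in cones and 0 in the other classes, whereas Pcdh15 has medians of 8876 and 8846 CPM in cones and 2946 and 2882 CPM in rods.

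Other cadherins were less even over cones. Cones were divided by the share of Opn1sw, the short-wavelength opsin, among their opsin UMIs, a division chosen after the data were seen and given as values with no test. Cdh12, a type II cadherin, had 1 and 7 UMIs in cones with at least 80% Opn1sw (1.44 and 43.3 CPM), and 104 and 65 UMIs in cones with under 20% (138 and 261 CPM). It was found in 1 of 112 and 4 of 31 cones of the first kind, and in 33 of 113 and 13 of 34 of the second. Cones between these limits were at 29.5 and 11.6 CPM. The median depth of the 2 kinds was 6104 and 5947 against 6533 and 7466 UMIs, and bipolar markers made up 0.0200% and 0.0310% of UMIs in Opn1sw-rich against 0.0161% and 0.0176% in Opn1sw-poor cones. Pcdh9 followed the same order, at 34.6 and 6.19 CPM in Opn1sw-rich and 112 and 112 CPM in Opn1sw-poor cones, although only 4 and 1 Opn1sw-poor cones held both genes. Few cones carried Pcdh9: 10 of 112 and 1 of 31 Opn1sw-rich, and 19 of 113 and 6 of 34 Opn1sw-poor cones. Among Opn1sw-poor cones 1 cell held 26 of the 84 short-wavelength UMIs and 1 cell 9 of the 28 white-light UMIs. The white-light Opn1sw-rich value rests on 1 UMI. Cdh20 went the other way, at 50.5 and 49.5 CPM against 24.0 and 20.1 CPM, on 5 to 35 UMIs per value. Cdh18 itself was at 3356 and 3480 CPM in Opn1sw-rich, 3670 and 4227 CPM in intermediate and 2872 and 3244 CPM in Opn1sw-poor cones, and the Opn1sw-poor over Opn1sw-rich ratio was 0.856 (0.807 to 0.908) and 0.932 (0.836 to 1.04).

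Rods led Cdh4 and Cdh16, where 6.2% of all genes were led by rods. Cdh4, known as R-cadherin and first described in retina, was at 107 and 112 CPM in rods, 89.4 and 72.9 CPM in cones, 35.8 and 35.4 CPM in bipolar cells, 23.0 and 28.4 CPM in Müller glia and 13.3 and 29.6 CPM in microglia. Rods and cones were near each other: the difference of 0.37 on the log2 scale passed at adjusted p = 0.015 in edgeR, but not with median-of-ratios scaling (adjusted p = 0.188) or DESeq2 (adjusted p = 0.551). That scaling moves the median of all genes by 0.14 in cones, 0.24 in bipolar cells, 0.28 in Müller glia and 0.35 in microglia relative to rods, on the log2 scale. Cdh16, a cadherin of kidney with a short tail, had 20.3 and 16.9 CPM in rods and 5.02 and 5.96 CPM in cones, near the 4.92 and 3.68 CPM that rod RNA would bring there. Its lead was also lost with DESeq2 (adjusted p = 0.143). Against rods, 10 of the 57 members tested were higher in cones (17.5%, against 16.8% of all genes) and 2 were lower (3.51%, against 19.4%). Of the 57, 38 were clustered genes, too scarce to leave much room for a lower call, as given below.

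Bipolar cells led 5 members, Cdh8, Cdh9, Cdh12, Pcdh7 and Pcdh17, where 5.59% of all genes were led by bipolar cells. With gates doubled, which left 12 of 48 and 3 of 11 cells poor in Prkca, only Cdh12 was still led by them, and the largest adjusted p in edgeR was 0.0658 for Pcdh7, 0.333 for Cdh8, 0.377 for Cdh9 and 1 for Pcdh17. Against rods, 28 of the 57 members tested were higher (49.1%, against 22.6% of all genes) and 3 were lower (5.26%, against 23.2%). The share of lower calls is limited here too by the 38 clustered genes, which were scarce in rods. Cdh12 was at 389 and 607 CPM in bipolar cells and 60.7 and 112 CPM in cones, the next class, with 2.12 to 7.09 CPM in rods and Müller glia and 0 in microglia. The fold over cones was 6.41 (5.23 to 7.91) and 5.43 (4.19 to 7.13). Cdh9, which guides the axons of a cone bipolar type to its layer, was at 256 and 180 CPM in bipolar cells. In the other classes it was at 0 to 1.49 CPM, apart from 31.9 CPM in white-light Müller glia, where all 9 UMIs came from 1 cell. Pcdh7 was at 203 and 227 CPM in bipolar cells and 46.0 and 138 CPM in Müller glia, a difference of 4.42-fold (2.90 to 7.04) and 1.64-fold (1.12 to 2.44). Of its 96 white-light UMIs in bipolar cells, 48 came from 1 cell, so the 1.64-fold value leans on that cell. The white-light Müller value also leans on 1 cell, as given below. Cdh8 had 53.7 and 33.1 CPM in bipolar cells, and Pcdh17 15.2 and 18.9 CPM on few UMIs.

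Cells of the bipolar class differed in which of these genes they carried. Prkca, the classical marker of rod bipolar cells, had at least 10 UMIs in 115 and 41 cells (69.3% and 78.8% of the class) and fewer than 5 in 48 and 11 cells. This division too was made after the data were seen and carries no test. Cdh12 was the cadherin of the Prkca-rich cells: 511 and 730 CPM, in 105 of 115 and 39 of 41 cells, against 111 and 146 CPM in Prkca-poor cells. The opposite held for Pcdh9, one of the protocadherins outside the clusters. It was found in each of the 48 and 11 Prkca-poor cells, at 3357 and 4574 CPM, and had 2 and 3 UMIs in all Prkca-rich cells together (2.57 and 8.97 CPM).

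Cdh9 was at 852 and 852 CPM in Prkca-poor cells and had 1 and 0 UMIs in Prkca-rich ones. Cdh8 was at 179 and 157 CPM and Cdh10 at 89.7 and 101 CPM in Prkca-poor cells, and both had 0 UMIs in Prkca-rich cells, where 3 UMIs would be 3.86 and 8.97 CPM. Pcdh7 was at 679 and 1054 CPM against 0 and 5.98 CPM. Of its 94 white-light UMIs in Prkca-poor cells, 48 came from 1 cell. Cdh18, the gene that marked cones, was at 828 and 1345 CPM in Prkca-poor and 20.6 and 23.9 CPM in Prkca-rich cells. Prkca-poor cells thus held 277 of the 293 and 120 of the 128 bipolar UMIs of Cdh18. Of the 120, 72 came from 1 cell. Cdh11, a type II cadherin also of bone and glia, was at 598 and 348 CPM against 32.1 and 18.0 CPM. Cdh2 and Cdh4 were found in both kinds. Cdh2 was at 194 and 348 CPM in Prkca-poor and 192 and 230 CPM in Prkca-rich cells, and Cdh4 at 41.9 and 33.6 CPM against 33.4 and 35.9 CPM.

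Within the Prkca-poor cells the genes were again unevenly spread. Cdh9 was found in 26 of 48 and 5 of 11 cells and Cdh8 in 8 and 3, while both were found together in 0 and 1 cells. Markers of ON bipolar cells (Trpm1, Grm6, Isl1) together had at least 5 UMIs, and Grik1, a marker of OFF bipolar cells, fewer than 5, in 37 and 7 cells, called the ON kind here. The reverse held in 10 and 2 cells, the OFF kind, of which 6 and 2 still had a Trpm1 UMI. Cdh9 was at 1050 and 1237 CPM in the ON kind, Cdh8 at 226 and 228 CPM and Cdh12 at 139 and 212 CPM. All of them had 0 UMIs in the OFF kind, where 3 UMIs would be 51.4 and 162 CPM. For Cdh8 and Cdh12 the white-light zeros thus say little. Pcdh7 was at 1148 and 2649 CPM in the OFF kind and 576 and 619 CPM in the ON kind. Pcdh9 was high in both, at 3371 and 5341 CPM in the ON and 3428 and 3731 CPM in the OFF kind, and Cdh18 was at 1023 and 1531 against 85.7 and 108 CPM. With 2 white-light cells of the OFF kind, those values describe single cells. Among the 7 white-light cells of the ON kind, 1 cell held 72 of the 94 UMIs of Cdh18. The 2 white-light cells of neither kind held 24 UMIs of Cdh18 (2586 CPM).

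**Figure D3:**
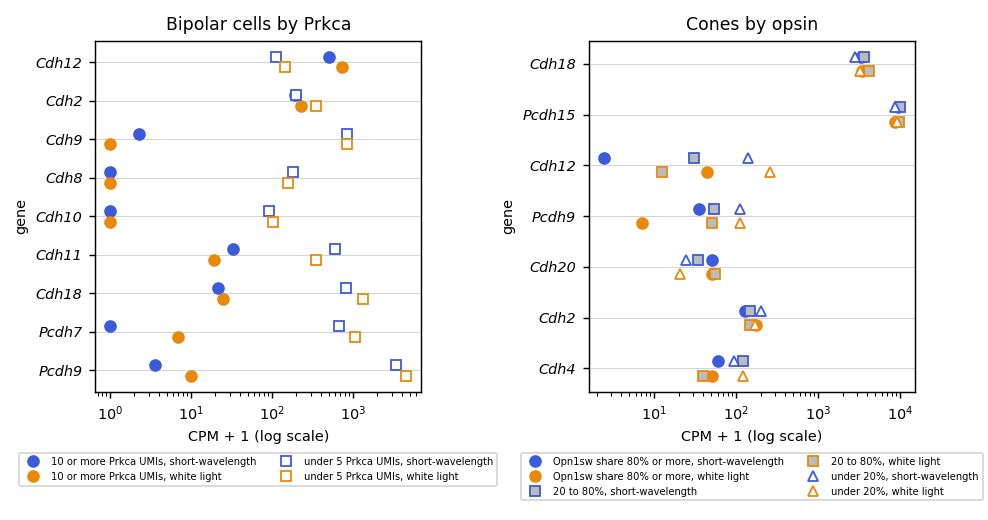
Levels in subsets of bipolar cells (left, at least 10 against under 5 Prkca UMIs) and of cones (right, by the share of Opn1sw among opsin UMIs), as CPM + 1 on a log axis; colours mark the library as in the key. Cdh12 lies to the right in Prkca-rich bipolar cells and in cones with little Opn1sw, whereas Cdh9, Cdh8, Cdh10, Pcdh7 and Pcdh9 lie to the right in Prkca-poor bipolar cells.

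Müller glia led 7 members, Cdh2, Cdh10, Cdh11, Cdh13, Cdh20, Pcdh9 and Pcdh11x, where 7.3% of all genes were led by Müller glia. Against rods, 18 of the 57 members tested were higher (31.6%, against 21.9% of all genes) and 3 were lower (5.26%, against 21.2%). Again the 38 clustered genes, scarce in rods, left little room for a lower call. Cdh2, or N-cadherin, was at 1185 and 1191 CPM in Müller glia, 192 and 255 CPM in bipolar cells, 161 and 164 CPM in cones, 55.5 and 51.7 CPM in rods, and 3.33 and 7.40 CPM in microglia. It was found in all 4 neural and glial classes and was 6.18-fold (5.29 to 7.26) and 4.67-fold (3.75 to 5.86) above bipolar cells. Cdh20, a type II cadherin, was at 604 and 606 CPM in Müller glia against 35.6 to 40.3 CPM in cones and bipolar cells and 2.04 and 2.67 CPM in rods. It was found in 64 of 87 and 30 of 35 Müller cells. In Prkca-poor bipolar cells Cdh20 was at 134.5 and 179 CPM, and Prkca-rich ones had 0 and 1 UMIs of it. Pcdh9 was at 2014 and 2605 CPM against 1007 and 970.5 CPM in the whole bipolar class, which lies below the 3357 and 4574 CPM of Prkca-poor bipolar cells given above.

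The other members led by Müller glia were lower. Cdh13, which lacks a cytoplasmic tail and is anchored by lipid, was at 72.8 and 63.8 CPM, against 14.6 and 22.3 CPM in cones. Pcdh11x, an X-linked protocadherin, was at 113 and 95.7 CPM, against 12.5 and 0 CPM in bipolar cells. Cdh10 was at 76.7 and 56.7 CPM, against 26.9 and 21.3 CPM in the whole bipolar class, a difference of 1.46 on the log2 scale (adjusted p = 0.010 in edgeR). Prkca-poor bipolar cells were above Müller glia for Cdh10 in both libraries, at 89.7 and 101 CPM. Cdh11 was at 243 and 347 CPM against 201 and 87.4 CPM in the whole bipolar class and 598 and 348 CPM in Prkca-poor bipolar cells. Its lead rests on the white-light library, where it was 3.98-fold (2.70 to 5.97), since the short-wavelength value was 1.21-fold with an interval of 0.965 to 1.51, and DESeq2 did not call it (adjusted p = 0.158).

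Microglia led Cdh23 alone, where 9.51% of all genes were led by microglia. Against rods, 1 of the 57 members tested was higher in microglia (1.75%, against 17.9% of all genes) and 4 were lower (7.02%, against 21.4%). The median difference from rods was -4.65 over these members and -0.67 over all genes, on the log2 scale. Of the 57, 38 were clustered genes, which were scarce in rods and left little room for a lower call. The low share of lower calls thus does not show levels near those of rods. Cdh23, the tip-link cadherin of hair cells, was at 116.5 and 103.6 CPM in microglia, with UMIs in 22 of 42 and 8 of 17 cells. In rods it was at 0.719 and 1.22 CPM, in cones at 0.502 and 0 CPM, in bipolar cells at 0, and in Müller glia at 15.3 and 0 CPM. Vsir, an immune checkpoint gene on the opposite strand, overlaps the span of Cdh23 (60302748 to 60696490 on chromosome 10) and was at 519 and 318 CPM in microglia and 0.320 and 0.223 CPM in rods. Whether reads of Vsir entered the count of Cdh23 was not tested, and how the authors' counting used strand is not given in the sources used here. Cdh2, Pcdh9, Cdh18 and Cdh12, the leading genes of other classes, were at 0 to 9.98 CPM in microglia.

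Some cadherins known from other tissues were hardly seen. Cdh1, the E-cadherin of epithelia, had 2 UMIs in all gated cells, Cdh3 had 8, and Cdh5, the VE-cadherin of endothelium, had 3. Cdh24 had 187 UMIs at 1.79 to 7.08 CPM in rods, cones, bipolar cells and Müller glia and was led by no class. Pcdh10 and Pcdh19, both of which are linked to neural development, had 35 and 18 UMIs.

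The clustered protocadherins were summed and set beside those outside the clusters. Together the 57 clustered genes were at 326 and 326 CPM in bipolar cells (293 to 361 and 274 to 385), 238 and 273 CPM in Müller glia, 120 and 125 CPM in cones, 95.7 and 90.7 CPM in rods, and 39.9 and 0 CPM in microglia, where 3 UMIs would be 22.2 CPM in the white-light library. Bipolar cells lay above cones and rods in both libraries. The intervals of bipolar cells and Müller glia met under white light (274 to 385 and 215 to 341 CPM) and not under short-wavelength light (293 to 361 and 198 to 283 CPM). With cells thinned to 1000 UMIs the order of these classes turned under white light, at 250 CPM in bipolar cells and 303 CPM in Müller glia. The non-clustered ones without Pcdh15 had a steeper order, at 2206 and 2875 CPM in Müller glia, 1254 and 1223 CPM in bipolar cells, 72.3 and 68.5 CPM in cones and 19.0 and 21.3 CPM in rods. Clustered genes gave 13.9% and 14.5% of all protocadherin UMIs in bipolar cells, 7.67% and 6.91% in Müller glia, 2.91% and 2.83% in rods, and 1.26% and 1.31% in cones, where Pcdh15 made up most of the rest. Singly, 16 of the 38 clustered genes tested were higher in bipolar cells than in rods (42.1%, against 22.6% of all genes). In Müller glia 7 were higher (18.4%, against 21.9%) and in cones 3 (7.89%, against 16.8%). Lower than in rods were 0 of the 38 in any of these 3 classes. Of all genes, 23.2% were lower in bipolar cells, 21.2% in Müller glia and 19.4% in cones. Singly, clustered genes were at most at 9.51 CPM in rods. In the 3 classes 3 UMIs would be 1.51 to 10.6 CPM, so the counts left little room for a lower call. Prkca-rich and Prkca-poor bipolar cells had like sums, at 330 and 329 CPM against 317 and 314 CPM.

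The 3 clusters lie side by side on chromosome 18, alpha at 36930184 to 37187661, beta at 37264938 to 37524479 and gamma at 37661793 to 37841873. Each alpha or gamma gene has its own first exon joined to exons shared by its cluster, and in the annotation all 14 alpha and 21 gamma genes shared exonic bases with another member, with a median of 53.4% and 44.6% of their length. Of 22 beta genes, which have no such shared exons, 2 did. How the authors' counting treated reads in shared exons is not given in the sources used here, so levels of alpha and gamma genes are uncertain. The beta cluster was at 191 and 191 CPM in bipolar cells, 138 and 191 CPM in Müller glia, 42.2 and 53.6 CPM in cones and 26.1 and 25.5 CPM in rods. Gamma genes were more even, at 94.0 and 92.1 CPM in bipolar cells, 99.7 and 81.5 CPM in Müller glia, 60.7 and 46.2 CPM in cones and 68.2 and 64.5 CPM in rods. The alpha cluster, known as a neuronal set, was at 41.2 and 42.5 CPM in bipolar cells and 17.1 and 25.3 CPM in cones. In cones 1 gene, Pcdhac2, held 20 of the 34 and 15 of the 17 alpha UMIs. It had the other order, at 10.0 and 22.3 CPM in cones and 2.69 and 4.72 CPM in bipolar cells. The alpha cluster had 0 UMIs in Müller glia and microglia, where 3 UMIs would be 5.75 and 10.6 CPM and 9.98 and 22.2 CPM. Rods had 1.32 and 0.668 CPM of alpha genes. At equal depth of 1000 UMIs a bipolar cell showed a mean of 0.396 and 0.231 clustered genes, a Müller cell 0.268 and 0.273, and a rod 0.0920 and 0.0874, too few to describe the combination used by a cell.

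**Figure D4:**
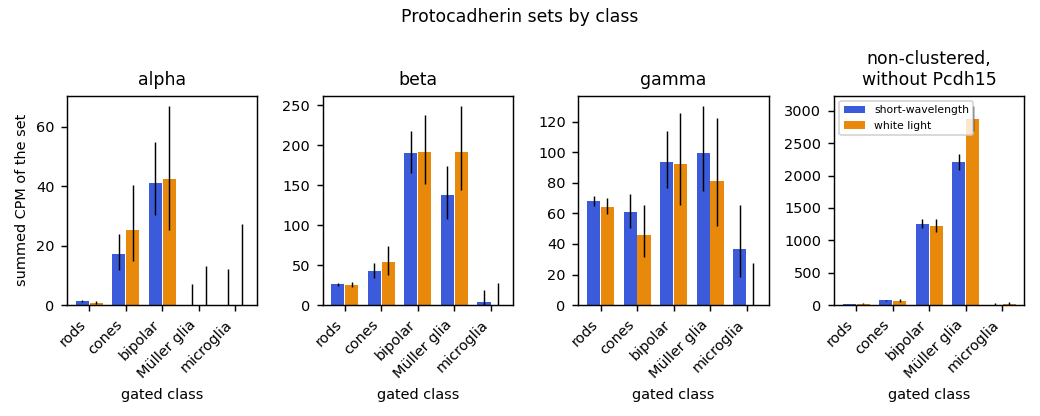
Summed level of the alpha, beta and gamma protocadherin clusters and of the non-clustered protocadherins without Pcdh15, in CPM on linear axes that differ between panels; bars are libraries and lines are exact 95% counting intervals. The alpha cluster has no UMI in Müller glia, while the non-clustered set reaches 2206 and 2875 CPM there.

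Partner genes were read from lists of known binding partners. Of 12 catenins and adaptors, all tested, 10 were higher in Müller glia than in rods and 2 were lower (21.9% and 21.2% of all genes), with a median log2 difference of 1.52 against -0.22 over all genes. Against rods, 4 of the list were higher and 2 lower in cones, 4 and 2 in bipolar cells, and 4 and 3 in microglia. Of all genes, 16.8% were higher and 19.4% lower in cones, 22.6% and 23.2% in bipolar cells, and 17.9% and 21.4% in microglia. Ctnnd2, or delta-catenin of neural tissue, was at 587 and 642 CPM in Müller glia and 315 and 383 CPM in bipolar cells against 2.51 to 7.44 CPM in rods and cones. Ctnna2, the neuronal alpha-catenin, was led by bipolar cells, at 534 and 399 CPM against 26.8 to 33.0 CPM in rods and cones and 0 and 21.3 CPM in Müller glia. Ctnnb1, or beta-catenin, was at 233 and 148 CPM in microglia and 61.3 to 102 CPM elsewhere, while Cdh2, which it binds, was at 3.33 and 7.40 CPM in microglia.

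Of 21 atypical and related cadherins, 10 were tested. Among them Cdhr1, a cadherin at the base of photoreceptor outer segments, was led by cones at 540 and 576 CPM against 346 and 364 CPM in rods. Clstn1, a calsyntenin, was likewise led by cones at 564 and 584 CPM, and Clstn3, also a calsyntenin, by bipolar cells at 211 and 177 CPM. Celsr2 and Fat1 were led by Müller glia, Celsr2 at 153 and 131 CPM. Of 9 Usher partners, 7 were tested: Whrn was led by rods at 145 and 148 CPM, and Adgrv1 and Clrn1 by Müller glia. Adgrv1 was at 912 and 815 CPM there and 707 and 714 CPM in rods, a difference of 0.29 on the log2 scale (adjusted p = 0.048 in edgeR), and Clrn1 was at 78.6 and 135 CPM. Ush1c and Ush1g, which bind the tip-link cadherins in hair cells, had 0 and 1 UMI, and Myo7a was at 10.9 and 10.8 CPM in rods. All 9 WAVE genes were tested, and against rods 2 were higher and 4 lower in cones, 3 and 1 in bipolar cells, 5 and 1 in Müller glia, and 4 and 5 in microglia. Over all genes the shares were 16.8% and 19.4% in cones and 22.6% and 23.2% in bipolar cells. They were 21.9% and 21.2% in Müller glia and 17.9% and 21.4% in microglia. Microglia led 4 of the WAVE genes, Cyfip1, Abi1, Wasf2 and Brk1, Müller glia 2 and bipolar cells 1. Of all genes, these classes led 9.51%, 7.3% and 5.59%. Cyfip2, led by no class, was at 139 and 138 CPM in cones and 157 and 120 CPM in bipolar cells against 32.2 and 31.2 CPM in rods.

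The light comparison has 1 library on each side, so no test was possible and the cells are not replicates. Ratios are short-wavelength over white-light CPM within a class, and a gene is called where the 95% interval, which covers counting error only, lies wholly beyond 1.5-fold. In rods 48 members had the minimum of 20 UMIs and 1 was called, where 0.344% of all genes measured were called. In cones 0 of 10 were called (0.195% of all genes), in bipolar cells 1 of 19 (0.42%), in Müller glia 1 of 11 (0.513%), and in microglia 0 of 2 (1.62%). The median log2 ratio of the members was -0.04 in rods, -0.18 in cones, 0.05 in bipolar cells and -0.30 in Müller glia, against 0.01 to 0.02 for all genes.

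Cdh11 was called in bipolar cells, at 201 CPM (225 UMIs) under short-wavelength and 87.4 CPM (37 UMIs) under white light, a ratio of 2.31 (1.62 to 3.36). Prkca-poor cells, which held 200 of the 225 and 31 of the 37 UMIs, were 28.9% of the class under short-wavelength and 21.2% under white light. Within them the ratio was 1.72 (1.17 to 2.60), on 48 and 11 cells. In Müller glia Cdh11 was at 243 and 347 CPM, a ratio on the other side of 1, 0.701 (0.534 to 0.922), and the difference between the classes was not tested. The call in bipolar cells was lost with other gates: the ratio was 1.42 (1.07 to 1.91) with gates halved.

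Pcdh7 was called in Müller glia, at 46.0 CPM (24 UMIs) and 138 CPM (39 UMIs), a ratio of 0.333 (0.191 to 0.567). UMIs were found in 10 of 87 and 11 of 35 cells, and 1 white-light cell held 18 of the 39. Without the cell of most UMIs in each library the ratio was 0.394 (0.192 to 0.791) and no longer called. Cdh8 was called in rods, where it is scarce, at 0.519 CPM (13 UMIs) and 1.78 CPM (16 UMIs), a ratio of 0.292 (0.129 to 0.647). With a rod gate that set no limit on other markers it was 0.825 (0.496 to 1.40).

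Cdh12 was not called, yet its ratio lay below 1 in the 3 classes with enough UMIs. It was 0.642 (0.549 to 0.752) in bipolar cells, from 389 and 607 CPM, 0.544 (0.405 to 0.736) in cones, from 60.7 and 112 CPM, and 0.544 (0.348 to 0.859) in rods, from 2.12 and 3.89 CPM. Within Prkca-rich bipolar cells it was 0.701 (0.596 to 0.825), and within Opn1sw-poor cones 0.531 (0.386 to 0.736). In those cones 1 cell held 10 of the 104 short-wavelength UMIs and 1 cell 19 of the 65 white-light UMIs. Opn1sw-rich cones were at 1.44 and 43.3 CPM on 1 and 7 UMIs. Intermediate cones went the other way, at 29.5 and 11.6 CPM on 16 and 3 UMIs. The 3 classes come from the same 2 libraries, so they are not separate replicates of the light condition. In rods, where Cdh12 is scarce, the scarce Cdh11, Cdh13 and Cdh23 were also below 1, at 0.644, 0.341 and 0.588. Of the 48 members measured in rods, 19 lay above 1. Cdh18 in cones was at 0.883 (0.843 to 0.925), and Pcdh15 at 0.993 (0.965 to 1.02) in cones and 1.02 (1.01 to 1.04) in rods. In Müller glia Pcdh9 was at 0.773 (0.703 to 0.851), whereas Cdh2 and Cdh20 had 1185 against 1191 and 604 against 606 CPM. With 1 library each, light cannot be told apart from other differences between the libraries, among them the number of cells and the share of barcodes outside every gate.

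**Figure D5:**
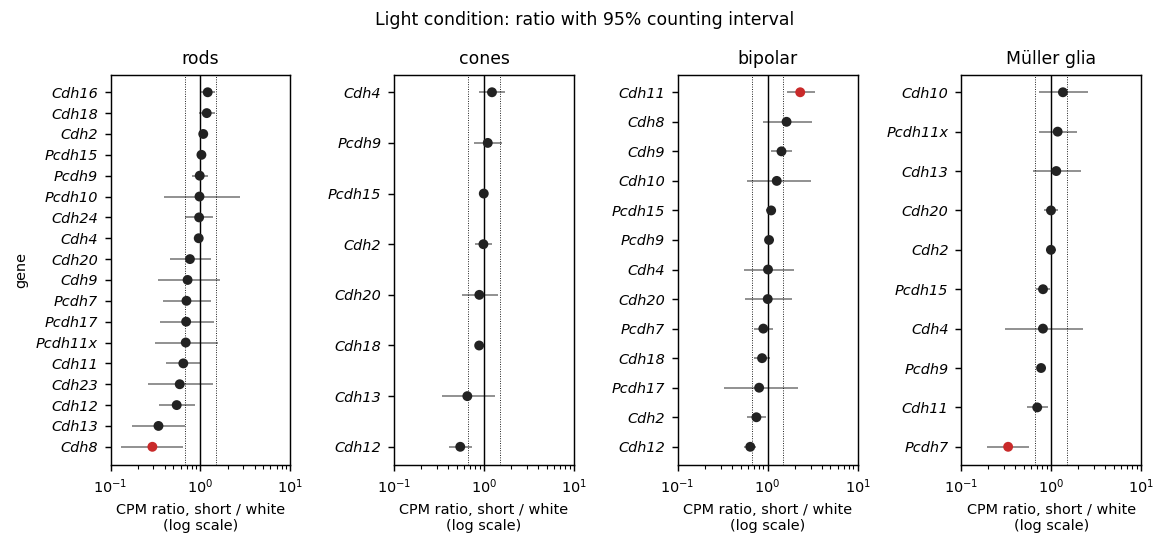
Ratio of short-wavelength to white-light CPM (log axis) for the cadherins and non-clustered protocadherins with at least 20 UMIs in rods, cones, bipolar cells and Müller glia; lines are 95% counting intervals, dotted lines mark 1.5-fold either way, and red points are called. The red points are Cdh8 in rods, Cdh11 in bipolar cells and Pcdh7 in Müller glia, and Cdh12 lies left of 1 in rods, cones and bipolar cells.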

How the data were processed

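The 2 retina libraries were made with 10x Genomics 3′ droplet kits, per the labels' protocols. The authors deposited unnormalised UMI counts for each gene in each barcode; per the file headers Cell Ranger 9.0.0 made them, and the submitters' processing notes name mm10. Whether intronic reads were counted is not given in the sources used here.

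Kept barcodes had 300 or more genes and no more than 20% mitochondrial UMIs. Scrublet (scanpy 1.11.5) marked under 0.5% by its own threshold in both libraries, so a fixed rate of top scores, 0.8% for each 1000 barcodes, was taken out instead (12.9% and 4.55%). A cell joined a class with at least 8 marker UMIs over 3 genes (Müller glia 4) and 0.5% of its UMIs, and with a rod marker share under 50% of the rod median. Rods needed 10 rod marker UMIs and fewer than 4 of each other class. No deposited annotation was used, so class names are rebuilt from markers. Counts were summed per class and library (10 sums) and tested in edgeR 4.0.16 (quasi-likelihood, class and library, total-count scaling). DESeq2 1.42.0 was an alternative. With library as a term, the spread is how class differences vary between the 2 libraries. That spread may be technical and includes any effect of light that differs between classes. Ratios carry exact conditional binomial intervals. Alternatives covered gates, doublets, cell depth, scaling, count minimums and single cells. The steps were tested on simulated data. Named genes are members with at least 50 UMIs, led by a class, or called for light, and Cdh18. Cdh1, Cdh3, Cdh5, Cdh6, Pcdh10, Pcdh19 and Pcdhac2 were named after their values were seen, as were the partner genes. The members and lists were chosen with earlier results of these data known. Gene positions come from GENCODE vM21 and promoters from RefSeq.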

Additional observations from a re-analysis of the deposited data

How the results depend on the processing

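No paired analysis was possible because each light condition has 1 library; this concerns the light comparison, and the class test had library as a term. The number of members passing between classes was 35 to 51 over the alternatives, against 38. Rods led 1 member with median-of-ratios scaling and 0 with DESeq2, and bipolar cells led 1 with gates doubled, where Prkca-poor cells fell from 48 and 11 to 12 and 3. Light calls moved as follows, and the cause was not tested. In rods there were 2 with gates halved, and 0 with cells thinned, with the rod gate without a limit on other markers (chosen after the data were seen) and with at least 50 UMIs. In bipolar cells there were 0 with gates doubled, 2 with doublets kept, 0 with cells thinned and 3 without the cell of most UMIs in each library. In Müller glia there were 0 with gates doubled, without the limit on rod RNA, with cells thinned and without that cell, and 2 with at least 10 UMIs. In microglia there was 1 without the limit on rod RNA. Clustered protocadherins came to 402.4 and 250 CPM in bipolar cells and 0 in short-wavelength microglia when thinned, and 303 CPM in white-light Müller glia, above the bipolar value. Small classes, with 17 white-light microglia and 35 Müller glia, limit what could be seen.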
